A study of Mus musculus with 18 samples.

Results

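Multipotent progenitors (MPP) were compared with long-term haematopoietic stem cells (LT) of mouse bone marrow, both from animals given only the corn oil vehicle. The comparison took every library that the sample titles mark as MPP with 1 week of oil or as LT with 2 weeks of oil, which gave 3 MPP and 3 LT libraries, 6 of the 18 in the series. All animals were adult male C57BL/6 mice, and no transgene or deletion is named in the labels. The other 12 libraries held short-term stem cells (ST) in oil, and the same 3 populations after tamoxifen, which acts on estrogen receptors in a tissue-selective way. RNA was amplified as cDNA before sequencing, and expression was read out for 14419 genes. MPP mice had received oil for 1 week and LT mice for 2 weeks, so the population and the duration of the vehicle cannot be told apart in any value below. The series' design text calls the 3 libraries of a group biological replicates. The labels do not say whether each came from 1 mouse or from a pool, nor which antibodies defined the gates.

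Blood is renewed from rare stem cells that divide seldom and can rebuild the whole system after transplantation. Long-term stem cells keep this capacity for life, whereas multipotent progenitors still give rise to many lineages but have largely lost self-renewal and divide more often. In the mouse, the passage between them is usually followed by the loss of the SLAM receptor CD150 (Slamf1) and the gain of CD48, CD34 and the cytokine receptor FLT3. Progenitors with much FLT3 are known for a bias to lymphoid and to granulocyte-monocyte fates, and the potential for platelets and red cells is thought to be lost early on that path.

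Values are read counts as scaled by the authors (called normalised CPM here), in the order MPP 1, 2 and 3 and LT A, B and C. Read counts recovered from them came to between 3664203 and 3928747 per MPP oil library and between 3361891 and 4560482 per LT oil library. A value of 1 therefore rests on a few reads, and a gene without reads in a library is listed at the value of 0.5 read. The mitochondrial ribosomal RNAs took 20.5% to 21.7% of the reads in MPP oil and 18.2% to 18.7% in LT oil, so this share did not overlap between the groups. The scaled values summed over all genes to 1.03e+06 to 1.05e+06 in MPP oil and to 929419 to 951978 in LT oil, also without overlap. Differences are MPP minus LT on the scale log2(value + 1), which understates the change of low genes, and a gene passed where the limma p adjusted over all 14419 genes was under 0.05. In a bulk library, fewer cells of a type and less RNA per cell cannot be told apart.

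Between the populations 2130 genes passed, 14.8% of those tested. Of these, 1119 (7.76% of all genes) were higher in MPP and 1011 (7.01%) were higher in LT, and the median difference of all genes was -0.0157. The shares of 7.76% and 7.01% are the reference for each list count of this fit below. A list count from another fit is to be read against that fit's own calls over all genes. More of the large differences lay on the stem cell side: over 4-fold on the fitted scale there were 107 genes higher in MPP and 203 higher in LT. The 3 MPP values lay wholly above or wholly below the 3 LT values in 2112 of the 2130 genes, where the same held for 37.3% of all genes. The split of the calls depended on the scaling. With libraries rescaled to their total without mitochondrial genes, 869 genes were higher in MPP and 1292 higher in LT, a share of 40.2% higher in MPP against 52.5%. When only the 6 oil libraries were fitted, 3445 genes passed, 1818 higher in MPP and 1627 higher in LT.

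**Figure D1:**
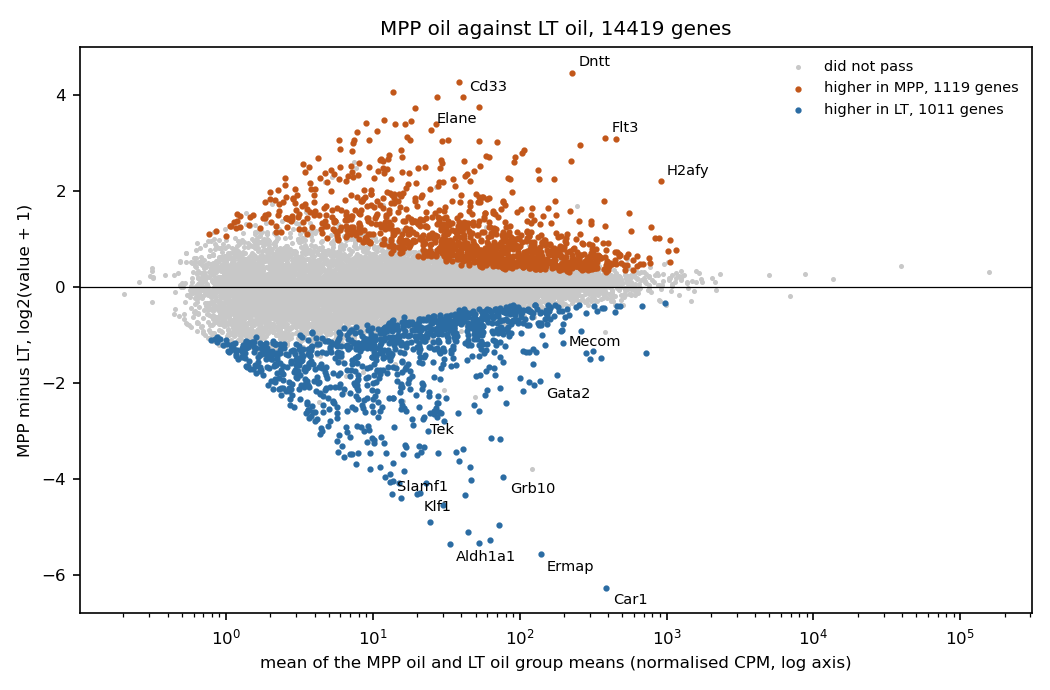
Difference between MPP oil and LT oil on the log2(value + 1) scale (vertical) against the mean of both group means in normalised CPM (horizontal, log axis), 1 point per gene. Orange points are the 1119 genes higher in MPP, blue points the 1011 genes higher in LT, and grey points did not pass. Car1 lies lowest and Dntt highest of all genes.

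The genes ranked by difference named both sides. Behind Dntt, the 15 genes most raised in MPP included Sema3d, a secreted guidance cue (74.8 ± 49.3 against 2.60 ± 2.10, MPP against LT, mean ± SD, n = 3 here and below), and Tlr7, a sensor of RNA (51.8 ± 7.90 against 2.42 ± 0.924). Slc35d3, of the nucleotide sugar transporter family, stood at 57.4, 45.1 and 75.1 in the MPP libraries and 4.69, 6.60 and 7.10 in the LT libraries, Ncf1, a subunit of the phagocyte oxidase, had 94.4 ± 1.48 against 10.8 ± 2.66, Clec12a, a myeloid lectin, 54.0 ± 26.1 against 5.51 ± 2.53, H2-Ob, a class II accessory chain, 181 ± 13.4 against 25.8 ± 6.75, and Ccl9, a chemokine, 104 ± 48.6 against 14.0 ± 2.09. On the LT side, behind Car1, Ermap and Aldh1a1, stood Atp1b2, a sodium pump chain (1.84 ± 1.496 against 104 ± 14.1), and Pklr, the pyruvate kinase of liver and red cells (0.693 ± 0.487 against 48.3 ± 8.19). Rhag, the Rh-associated glycoprotein of red cells, had 1.58 ± 0.512 against 58.1 ± 2.75, Ces2g, a carboxylesterase, 3.61 ± 0.955 against 141 ± 30.2, Tmem56 1.21 ± 0.775 against 40.4 ± 6.43 and Fam55b 1.68 ± 0.263 against 44.5 ± 7.73. The values of all of these genes did not overlap between the groups, which the ranking required.

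The surface markers that tell these populations apart in sorting differed in the directions that the sort labels imply, which checks the labels. All 19 markers of the list were in the table. Of 8 markers of the stem cell side, 6 were higher in LT and none higher in MPP, and of 8 markers of the progenitor side 6 were higher in MPP and none higher in LT. Since the cells may have been sorted on some of these proteins, and the gates are not given, the markers are read only as a check of the labels.

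Slamf1 (ENSMUSG00000015316), the CD150 receptor, stood at 0.405, 1.29 and 0.660 in the MPP libraries and 28.2, 30.0 and 18.2 in the LT libraries. Its 3 MPP values rested on 7 reads in all and lay far below every LT value (-3.89, adjusted p = 3.9e-09). Tek, the angiopoietin receptor TIE2 of quiescent stem cells, stood at 6.35, 5.01 and 4.36 in the MPP libraries and 35.5, 38.9 and 43.9 in the LT libraries, and the groups did not overlap (-2.70, adjusted p = 6.9e-10). Esam, an endothelial adhesion molecule also carried by stem cells, had means of 3.95 ± 0.389 against 23.4 ± 0.332. Itga2b, the integrin CD41 of platelets and some stem cells, had 8.04 ± 0.915 against 35.9 ± 3.51. Procr, the protein C receptor EPCR, stood at 22.3, 20.8 and 12.3 in the MPP libraries and 42.0, 51.5 and 62.0 in the LT libraries (-1.47, adjusted p = 0.015), and its call was lost without MPP library 3 (adjusted p = 0.076) or LT library C (adjusted p = 0.059). Cd9, a tetraspanin, had 22.4 ± 3.60 against 36.2 ± 5.51, a call lost without MPP 1, MPP 2, LT A or LT B. Thy1 (3.23 ± 0.195 against 5.45 ± 2.65) and the tetraspanin Cd81 (223 ± 18.3 against 279.6 ± 20.04) did not pass.

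On the progenitor side, Flt3 (ENSMUSG00000042817) stood at 695, 703 and 646 in the MPP libraries and 79.7, 50.5 and 119 in the LT libraries. Every MPP value lay over every LT value, a log2 difference of 3.10 (SE 0.38, adjusted p = 7.7e-05), and Flt3 reads were present in each LT library. Cd48, the SLAM family ligand, stood at 68.0, 82.6 and 65.3 in the MPP libraries and 13.7, 7.13 and 13.0 in the LT libraries (2.62, adjusted p = 2.2e-09). Cd34, a sialomucin that long-term stem cells of adult mice carry at low level, stood at 607, 572 and 563 in the MPP libraries and 171, 125 and 218 in the LT libraries (1.79, adjusted p = 3.3e-05). Cd27, a receptor of the TNF family that the list counts as shared by both populations, had 208 ± 10.1 against 133 ± 18.1 (0.65, adjusted p = 0.0012). Cd244, the receptor 2B4, had 38.2 ± 2.06 against 10.4 ± 7.81. Its LT values of 9.07, 3.36 and 18.8 varied widely, and with only the 6 oil libraries it did not pass (adjusted p = 0.076). Cd33, a sialic-acid-binding myeloid receptor, stood at 88.0, 83.5 and 60.9 in the MPP libraries and 1.56, 4.98 and 7.10 in the LT libraries and had the largest difference of the markers (3.96, adjusted p = 5.1e-10). Il7r (13.8 ± 6.61 against 6.96 ± 1.02) and Fcgr3 (2.06 ± 0.346 against 0.998 ± 0.333), which mark later lymphoid and myeloid progenitors, did not pass.

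Of the 3 receptors listed as shared by both populations, Cd27 was higher in MPP, as given above, and the other members differed less. Kit, the stem cell factor receptor, stood at 873, 909.9 and 794 in the MPP libraries and 1032, 1075 and 1152 in the LT libraries, a small difference (-0.34, adjusted p = 0.033) that no longer passed without any 1 of the 6 oil libraries or in edgeR. Ly6a, the SCA-1 antigen, had 74.1 ± 12.5 against 63.7 ± 12.7 and did not pass (0.22, adjusted p = 0.65).

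**Figure D2:**
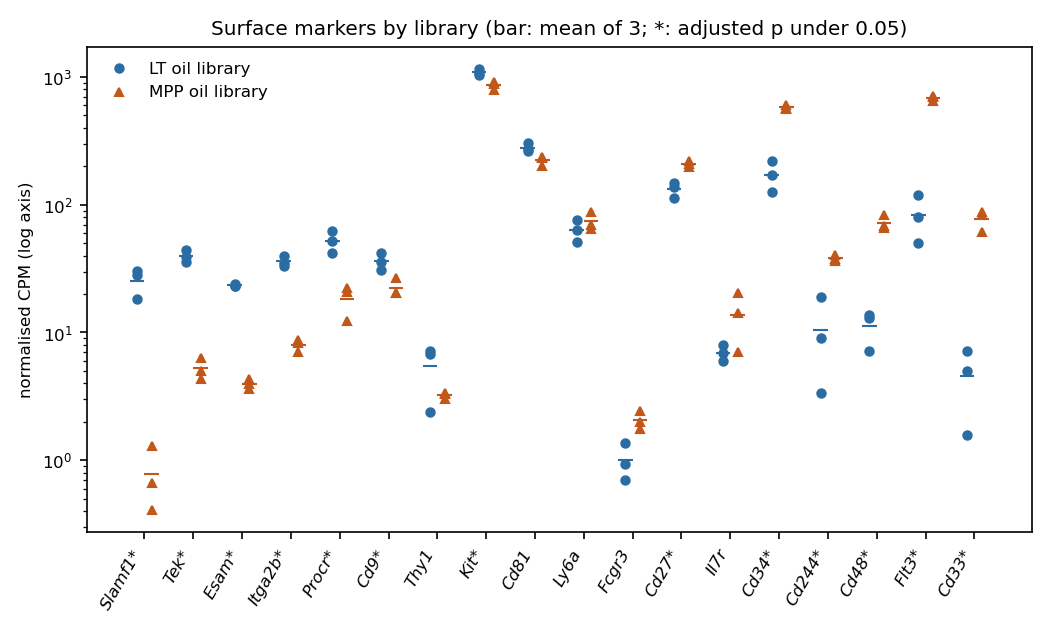
Normalised CPM (log axis) of 18 of the 19 surface markers in each LT oil library (blue circles) and each MPP oil library (orange triangles), ordered by the difference. Short bars are means of 3 libraries and stars mark genes with an adjusted p under 0.05. Slamf1, Tek, Esam and Itga2b are lower in every MPP library, and Cd33, Flt3 and Cd48 higher.

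Most of the genes listed for long-term stem cells were lower in MPP. Of 45 listed genes 44 were in the table, and 0 were higher in MPP and 34 lower, with a median difference of -1.48 against -0.0157 over all genes. The count lay between 29 and 33 when any 1 oil library was left out. Among the 16 transcription factors of the list, 12 were lower in MPP. Gata2, needed for stem cell emergence and survival, stood at 55.8, 56.3 and 54.0 in the MPP libraries and 214, 235 and 207 in the LT libraries (-1.96, adjusted p = 2.2e-08). Both groups were tight and did not overlap. Mecom (EVI1) stood at 129, 105 and 182 in the MPP libraries and 246, 257 and 247 in the LT libraries (-0.89, adjusted p = 5.2e-04). Mllt3, a chromatin reader that maintains stem cell programmes, had 78.9 ± 12.5 against 281 ± 23.6. Prdm16 had 33.5 ± 4.55 against 84.0 ± 1.51 and Meis1 310.4 ± 8.32 against 418 ± 22.01, the smallest difference of those named here (-0.43, adjusted p = 0.0072).

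Some factors often listed with stem cells did not pass. Hlf had 858 ± 75.8 against 1114 ± 100.3 (-0.37, adjusted p = 0.20) and Erg had 276 ± 8.92 against 276 ± 10.1 (0.0027, adjusted p = 1.00). Egr1, an immediate early gene known for stem cell quiescence, had 82.8 ± 33.7 against 34.5 ± 16.7 and a positive difference (1.24, adjusted p = 0.33).

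Among the 28 surface and signalling genes, 22 were lower in MPP. Tgm2, transglutaminase 2, stood at 5.81, 4.73 and 3.30 in the MPP libraries and 96.8, 99.2 and 70.3 in the LT libraries (-4.01, adjusted p = 2.4e-10). Each MPP value was under each LT value. Trpc6, a cation channel, had 3.03 ± 0.986 against 38.1 ± 1.91, Clec1a, a C-type lectin, 1.49 ± 0.664 against 22.3 ± 1.99, and Fgd5, a marker used to label stem cells, 21.7 ± 6.76 against 78.9 ± 1.63. Vwf, von Willebrand factor, which marks platelet-biased stem cells, had 29.1 ± 3.61 against 107 ± 16.0. Neo1 and Nupr1 rested on 3 reads each over the 3 MPP libraries, against 114 and 228 reads in LT.

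Imprinted genes, several of which restrain growth, moved the same way where they passed. Of 19 measured, 0 were higher in MPP and 9 lower, and 6 of the 7 with a role in growth restraint were among them. Grb10, an adaptor that dampens insulin and KIT signalling, stood at 13.4, 7.30 and 5.94 in the MPP libraries and 141, 175 and 121 in the LT libraries (-3.95, adjusted p = 4.2e-12). Meg3, a long non-coding RNA of the Dlk1-Dio3 locus, stood at 2.30, 0.143 and 0.396 in the MPP libraries and 26.2, 37.3 and 23.5 in the LT libraries (-4.08, adjusted p = 4.9e-07), and Rian of the same locus had 1.12 ± 0.648 against 16.2 ± 6.05. Cdkn1c, which encodes the CDK inhibitor p57, stood at 2.57, 3.87 and 2.77 in the MPP libraries and 16.2, 17.9 and 16.3 in the LT libraries (-2.14, adjusted p = 7.1e-06). All 3 LT values of each of these genes were above all MPP values. H19 (0.137 ± 0.00579 against 1.48 ± 0.432), Igf2r (57.5 ± 9.35 against 69.4 ± 15.02) and Gnas (425 ± 97.2 against 373 ± 32.6) did not pass.

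The other CDK inhibitors did not follow Cdkn1c. Cdkn1b (p27) had 66.1 ± 1.81 against 63.2 ± 5.65 and did not pass, and Cdkn1a (p21) had 10.8 ± 0.663 against 5.16 ± 2.42, at the edge of the threshold (adjusted p = 0.050) and lost in 12 alternatives, among them those without MPP 1, MPP 2, MPP 3, LT A or LT C and those in edgeR and DESeq2. Of the 22 measured genes of the list of CDK inhibitors and quiescence genes, 7 were higher in MPP and 1 lower, the latter being Cdkn1c. The antiproliferative genes Btg1 (62.6 ± 18.2 against 23.5 ± 3.14) and Btg2 (46.7 ± 12.5 against 9.38 ± 1.54) were higher in MPP, as were Ccng2 (69.0 ± 1.47 against 41.3 ± 5.38) and Sesn1 (176 ± 13.6 against 99.4 ± 16.0). Foxo1 (32.8 ± 3.19 against 44.1 ± 3.13) and Foxo3 (419 ± 21.2 against 357 ± 14.6), transcription factors of stem cell maintenance, did not pass.

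Most of the mitosis genes were higher in MPP. Of 39 listed and measured, 29 were higher in MPP and 0 lower, with a median difference of 0.94. The count ranged from 23 to 32 when 1 oil library was left out. All 8 genes of chromosome structure, 9 of 10 of spindle and division and 5 of 8 kinases passed. Top2a, the topoisomerase that untangles chromosomes, stood at 672, 932 and 856 in the MPP libraries and 332, 292 and 220.2 in the LT libraries (1.55, adjusted p = 7.5e-07). Kif11, the spindle motor, stood at 244, 372 and 369 in the MPP libraries and 119, 122 and 85.1 in the LT libraries (1.58, adjusted p = 5.7e-07), and Kif23, needed for cytokinesis, had 100.1 ± 22.3 against 32.2 ± 1.52. Foxm1, the transcription factor of the mitotic programme, had 83.9 ± 12.1 against 29.6 ± 3.19 (1.47, adjusted p = 3.1e-06). All MPP values of these 4 genes lay above all LT values. Plk1 (26.3 ± 5.34 against 24.4 ± 3.84) and Cdc20 (27.4 ± 9.07 against 20.2 ± 2.47) did not pass.

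Part of the DNA replication genes were higher in MPP. Of 43 listed and measured, 18 were higher in MPP and 0 lower, and the median difference was 0.39. This count rested on single libraries, since it fell to 8 without MPP library 2 and to 9 without LT library C. Mcm6, a subunit of the replicative helicase, stood at 272, 301 and 249 in the MPP libraries and 193, 189 and 169 in the LT libraries (0.57, adjusted p = 0.0011). Pola1, the catalytic subunit of the polymerase that starts new strands, stood at 173, 199 and 182 in the MPP libraries and 99.7, 96.8 and 92.9 in the LT libraries (0.93, adjusted p = 1.6e-05). Pole had 186 ± 21.7 against 98.2 ± 15.5, Cdc7, the kinase that fires origins, 43.3 ± 8.70 against 21.6 ± 0.631, and Dnmt1, which copies DNA methylation, 399 ± 35.2 against 277 ± 29.9. For these 5 genes the calls held in every alternative run. Mcm5 (100.01 ± 18.4 against 68.8 ± 9.42) and Mcm7 (147 ± 14.2 against 112 ± 5.84) passed (0.53, adjusted p = 0.017, and 0.38, adjusted p = 0.040), but both lost the call without MPP 1, MPP 2 or LT C, and Mcm7 also without LT A or LT B. Mcm2 (141 ± 13.9 against 131 ± 25.1), another subunit of the helicase, did not pass. Neither did Cdc6 (35.3 ± 2.70 against 41.7 ± 7.22) and Orc1 (23.3 ± 1.04 against 23.02 ± 1.98), which load the helicase.

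Promoters of this list are shown because replication genes are textbook targets of E2F factors, and several held an E2F-type word. The words searched were TTTCCCGC, TTTCGCGC and TTTGGCGC on either strand, in the 250 bases before each RefSeq start site (GRCm38.p6). Of the 43 genes 35 had at least 1 promoter entry, 43 in all, and 10 of these (23.3%) held a word. Among the 32851 promoters of the same length in the table the share was 1.53%. Among the 13422 promoters of the genes tested, of which 10633 had an entry, it was 2.79%. The median GC content was 59.6% in the list, 52.4% in the whole table and 59.2% for the genes tested. Among the 36 of the mitosis list 1 promoter held one. For all genes higher in MPP or higher in LT fewer than 80% had an entry, so that comparison is void and no share is given. The genes tested, with an entry for 10633 of 14419, also lie under 80%, so their share of 2.79% is a rough reference only. A word is a match of letters, not a measured site. Mcm5, Mcm6, Mcm7 and Pola1 were picked, with their values known, as called members with a word in this window. The 200 bases before the start are given 5′ to 3′ on the gene's strand, with the words in capitals. A run longer than 8 capitals holds overlapping words on both strands, as in Mcm5 and Mcm6.
Mcm5 (chr8:75109309-75109508, plus strand): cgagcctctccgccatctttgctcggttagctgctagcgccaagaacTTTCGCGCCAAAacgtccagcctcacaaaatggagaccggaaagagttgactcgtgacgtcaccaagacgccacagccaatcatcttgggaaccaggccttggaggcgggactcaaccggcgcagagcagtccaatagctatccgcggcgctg
Mcm6 (chr1:128359706-128359905, minus strand): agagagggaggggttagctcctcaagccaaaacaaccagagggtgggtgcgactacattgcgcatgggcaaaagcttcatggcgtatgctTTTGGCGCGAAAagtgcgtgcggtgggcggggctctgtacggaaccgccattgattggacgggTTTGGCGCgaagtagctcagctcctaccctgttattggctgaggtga
Mcm7 (chr5:138171884-138172083, minus strand): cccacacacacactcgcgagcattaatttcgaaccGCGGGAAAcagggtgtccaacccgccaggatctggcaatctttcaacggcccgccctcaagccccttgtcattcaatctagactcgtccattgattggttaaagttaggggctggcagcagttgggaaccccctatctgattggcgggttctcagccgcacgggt
Pola1 (chrX:93632156-93632355, minus strand): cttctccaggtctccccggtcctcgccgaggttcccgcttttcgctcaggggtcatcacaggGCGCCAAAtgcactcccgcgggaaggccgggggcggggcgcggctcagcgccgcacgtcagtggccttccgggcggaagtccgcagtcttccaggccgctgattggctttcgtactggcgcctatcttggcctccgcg

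Cyclins, CDKs and E2F factors did not all move one way. Of 24 cyclins, CDKs and E2F factors 10 were higher in MPP and 3 lower, and the higher count was 5 without MPP 2 or LT C and 6 without LT B. Ccna2, the cyclin of S phase and mitotic entry, had 165 ± 34.4 against 94.6 ± 1.53 (0.77, adjusted p = 0.0012), Cdc25c, which activates CDK1, 13.9 ± 1.46 against 4.51 ± 0.0802, and E2f7, an E2F that represses, 30.8 ± 4.06 against 8.79 ± 0.877. Cdk6, the G1 kinase that long-term stem cells carry at low level, stood at 476, 531 and 651 in the MPP libraries and 368, 296 and 334 in the LT libraries (0.73, adjusted p = 0.0078), and lost its call without MPP library 3. In contrast, Ccne1, the G1/S cyclin E1, stood at 3.38, 3.01 and 5.15 in the MPP libraries and 12.4, 13.3 and 10.2 in the LT libraries and was lower in MPP (-1.44, adjusted p = 7.1e-04). The LT values of Ccne1 all lay above the MPP values, whereas Ccne2 had 18.9 ± 1.58 against 13.5 ± 3.20 and did not pass. The other lower members were Ccnd3 (43.4 ± 6.42 against 67.2 ± 4.54), a call lost in 10 alternatives, and E2f4 (56.0 ± 10.9 against 91.3 ± 6.60), a call lost without MPP 3 or LT C.

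Genes of homologous recombination and the Fanconi pathway repair DNA at forks. Of 30 measured, 14 were higher in MPP and 0 lower, and 16 did not pass. The higher count was 8 without MPP 2 and 9 without LT C. Fanci had 51.2 ± 9.85 against 22.8 ± 5.57, Fancd2 54.3 ± 5.06 against 29.1 ± 6.69 and Brca1 88.2 ± 16.3 against 45.6 ± 7.46. Of 23 histone genes, 3 were higher in MPP and 0 lower, beside 7.76% and 7.01% of all genes. With only the 6 oil libraries 12 histone genes were higher and 1 lower, beside 1818 and 1627 of all 14419 genes. H2afy, the variant macroH2A1, had the largest difference of these and stood at 1498, 1615 and 1378 in the MPP libraries and 352, 268 and 359 in the LT libraries (2.20, adjusted p = 2.8e-11). Every MPP value of H2afy lay far above every LT value.

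Of the genes primed for lymphoid fates, part were higher in MPP and most did not pass. All 33 listed genes were measured, 14 were higher in MPP and 1 lower, and the median difference was 0.81. Dntt (ENSMUSG00000025014), the terminal transferase that adds bases at V(D)J joints, stood at 394, 451 and 463 in the MPP libraries and 15.9, 23.8 and 17.4 in the LT libraries, the largest difference of any gene higher in MPP (4.46, SE 0.47, adjusted p = 1.8e-05). Satb1, an organiser of chromatin in lymphocytes, stood at 448, 464 and 447 in the MPP libraries and 54.1, 44.8 and 79.5 in the LT libraries (2.95, adjusted p = 1.7e-07), and Rag2, a subunit of the V(D)J recombinase, at 18.5, 28.5 and 32.3 in the MPP libraries and 1.98, 2.83 and 0.418 in the LT libraries (3.40, adjusted p = 7.5e-07). None of these groups overlapped. Rag1, its partner, had 5.67 ± 2.97 against 1.81 ± 0.748 and did not pass (adjusted p = 0.065). Notch1 had 236 ± 23.5 against 75.2 ± 10.7, Il12a, a cytokine subunit, 82.6 ± 4.96 against 15.1 ± 4.73, and Cd52, a lymphocyte glycoprotein, 34.8 ± 0.754 against 5.53 ± 1.75. Ikzf1 (704 ± 30.0 against 475 ± 21.2), the Ikaros factor, passed by a smaller difference (0.57, adjusted p = 0.0029).

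Factors of later B cell commitment did not pass: Ebf1 had 2.70 ± 0.667 against 1.98 ± 0.631 and Tcf3 72.4 ± 10.5 against 81.2 ± 4.02. Cnr2, the cannabinoid receptor of immune cells, was the only listed gene lower in MPP (4.45 ± 1.56 against 16.9 ± 1.61). Ighm, whose unrearranged locus can be transcribed in progenitors, had 364 ± 34.0 against 129 ± 90.3 and did not pass (1.70, adjusted p = 0.062). Of 10 measured B cell markers none passed in either direction, Cd79a having 1.23 ± 0.460 against 2.92 ± 1.35, and of 7 T and NK cell markers 2 were higher in MPP, Cd4 (11.9 ± 1.33 against 3.24 ± 0.788) and Lck (19.2 ± 2.87 against 8.29 ± 2.78), the latter not without MPP 1, MPP 2 or LT B.

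Most granulocyte-monocyte genes were higher in MPP. Of 38 measured, 24 were higher in MPP and 0 lower, with a median difference of 1.38, and 20 to 24 without any 1 oil library. Mpo (ENSMUSG00000009350), the myeloperoxidase of primary granules, stood at 623, 791 and 1018 in the MPP libraries and 97.2, 99.5 and 82.3 in the LT libraries (3.09, adjusted p = 1.8e-04). Elane, neutrophil elastase, stood at 29.6, 44.0 and 62.2 in the MPP libraries and 1.35, 6.60 and 4.32 in the LT libraries (3.28, adjusted p = 0.0016), and Ctsg, cathepsin G, had 22.6 ± 9.37 against 2.77 ± 1.6002. All MPP values of these granule genes were above all LT values. Prtn3, proteinase 3 of the same granules, had 38.8 ± 13.3 against 22.8 ± 5.07 and did not pass.

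Of 9 transcription factors of these lineages 3 passed. Irf8, which directs monocytes and dendritic cells, stood at 40.1, 45.1 and 64.0 in the MPP libraries and 2.61, 5.52 and 3.48 in the LT libraries (3.40, adjusted p = 6.5e-06). Cebpa, the master factor of granulocyte commitment, stood at 11.8, 9.88 and 21.0 in the MPP libraries and 3.02, 0.135 and 2.09 in the LT libraries (2.59, adjusted p = 1.1e-04), and Klf4 had 4.07 ± 1.25 against 0.534 ± 0.402. Sfpi1, which encodes PU.1, had 87.6 ± 4.02 against 46.0 ± 5.89 (0.92, adjusted p = 0.061) and Runx1 229.7 ± 10.8 against 221 ± 8.44, and neither passed. Of 12 receptors 8 passed. Csf1r, the receptor of macrophage colony-stimulating factor, had 26.9 ± 7.03 against 4.78 ± 3.46, Csf3r, that of granulocyte colony-stimulating factor, 242 ± 27.4 against 112 ± 20.7, and Ccr2 22.6 ± 13.0 against 5.19 ± 2.01. Csf2rb, the shared chain for GM-CSF and IL-3, had 113 ± 14.0 against 44.4 ± 9.48, and its near-identical copy Csf2rb2 19.4 ± 2.51 against 21.6 ± 2.74, so reads may have been split between them.

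Transcripts of mature neutrophils moved with these genes. Of 13 measured markers 9 were higher in MPP and 0 lower, and 5 were higher without MPP 3, LT A or LT C. Their summed level was 425 to 965 in MPP and 174 to 197 in LT. Ngp, a granule protein, stood at 86.9, 63.2 and 173 in the MPP libraries and 13.7, 25.4 and 7.94 in the LT libraries and S100a8, a calprotectin chain, at 26.6, 21.9 and 88.3 in the MPP libraries and 10.7, 10.1 and 4.596 in the LT libraries, so MPP library 3 was highest for both. S100a8 itself did not pass (2.09, adjusted p = 0.051). The summed macrophage and monocyte markers were 483 to 549 in MPP and 291 to 316 in LT, with 7 of 13 higher in MPP, while C1qa (1.32 ± 0.386 against 1.25 ± 0.731) and Fcgr1 (0.768 ± 0.660 against 1.16 ± 0.404) were near 1 in both. Of 8 mast cell and basophil markers 4 were higher in MPP and 2 lower, of 10 dendritic cell markers 3 were higher in MPP and 2 lower, and of 8 markers of stroma and endothelium 1 was higher in MPP and 4 lower. The part of such cells in the granulocyte-monocyte result was not tested.

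Megakaryocyte and erythroid genes lay on the other side. Of 43 measured, 1 was higher in MPP and 31 lower, and the median difference was -1.38. The count of lower genes was 25 to 29 without any 1 oil library. The erythroid members Car1 and Ermap held the largest differences of all genes on either side. Car1 (ENSMUSG00000027556), carbonic anhydrase 1, stood at 6.08, 11.9 and 9.90 in the MPP libraries and 689.5, 910.0 and 706 in the LT libraries (-6.26, adjusted p = 1.0e-07). Ermap, the Scianna blood group protein, stood at 3.65, 6.16 and 4.62 in the MPP libraries and 263, 322 and 232 in the LT libraries (-5.57, adjusted p = 1.5e-08), and Aqp1, the water channel, at 1.49, 3.87 and 1.72 in the MPP libraries and 115, 144 and 108 in the LT libraries (-5.26, adjusted p = 8.1e-07). Every LT value of these genes was far above every MPP value. Ank1, which anchors the red cell membrane skeleton, had 1.58 ± 0.512 against 87.3 ± 14.3, Mfsd2b, an exporter of sphingosine phosphate, 3.12 ± 0.697 against 81.6 ± 7.00, and Epor, the erythropoietin receptor, 0.963 ± 0.308 against 17.3 ± 2.66 on 9 MPP reads.

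Of 10 transcription factors 8 were lower in MPP. Klf1, the erythroid Krüppel-like factor, stood at 0.946, 1.86 and 0.396 in the MPP libraries and 30.5, 47.8 and 39.1 in the LT libraries (-4.32, adjusted p = 1.1e-08), and its MPP values rested on 10 reads. Gata1, the master factor of both lineages, stood at 0.405, 1.58 and 1.98 in the MPP libraries and 29.1, 37.8 and 26.0 in the LT libraries (-3.84, adjusted p = 1.6e-07). Gfi1b had 16.5 ± 12.9 against 81.2 ± 19.7, Zfpm1, the GATA1 partner FOG1, 21.7 ± 3.85 against 98.5 ± 3.52, and Tal1 89.2 ± 10.5 against 207 ± 17.8. Mef2c was the member higher in MPP (486 ± 38.4 against 256 ± 9.67), and it is also known in lymphoid development. Of 21 platelet genes 13 were lower. Itgb3, the platelet integrin CD61, stood at 6.89, 7.30 and 10.2 in the MPP libraries and 41.2, 43.2 and 35.5 in the LT libraries (-2.18, adjusted p = 8.8e-06), Rab27b, which secretes platelet granules, had 2.31 ± 0.492 against 17.4 ± 0.841, and Sdpr (cavin 2) 0.607 ± 0.605 against 23.6 ± 8.21. Pf4, platelet factor 4, had 1.51 ± 0.492 against 10.8 ± 3.17 and lost its call without MPP 1, MPP 2, MPP 3, LT A or LT B, in edgeR, and with a pseudocount of 3. Selp, P-selectin, had 11.7 ± 5.09 against 6.11 ± 2.27 and did not pass.

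Markers of red cell precursors were read beside these genes. Of 14 measured 0 were higher in MPP and 8 lower, and their summed level was 134 to 176 in MPP and 628 to 789 in LT. The late products did not follow. Hbb-b1, adult beta globin, stood at 13.6, 12.5 and 2.77 in the MPP libraries and 5.94, 2.83 and 7.38 in the LT libraries, so the groups overlapped. Alas2, the red cell form of the first enzyme of haem synthesis, stood at 3.65, 2.43 and 2.51 in the MPP libraries and 3.23, 3.90 and 3.48 in the LT libraries. Hba-a1 had 4.30 ± 3.15 against 5.24 ± 2.09 and Slc4a1, the band 3 anion exchanger, 5.49 ± 2.60 against 2.79 ± 0.886, and none of these 4 passed. Globin copies are nearly identical, so their reads may be shared. Megakaryocyte markers summed to 40.5 to 52.9 in MPP and 122 to 155 in LT, and Ppbp (1.58 ± 1.11 against 2.79 ± 0.618) and Gp1bb (0.137 ± 0.00579 against 1.29 ± 0.407) did not pass. The count of megakaryocyte markers fell to 3 without MPP 2, MPP 3 or LT A. The part of other cells in the result was not tested.

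**Figure D3:**
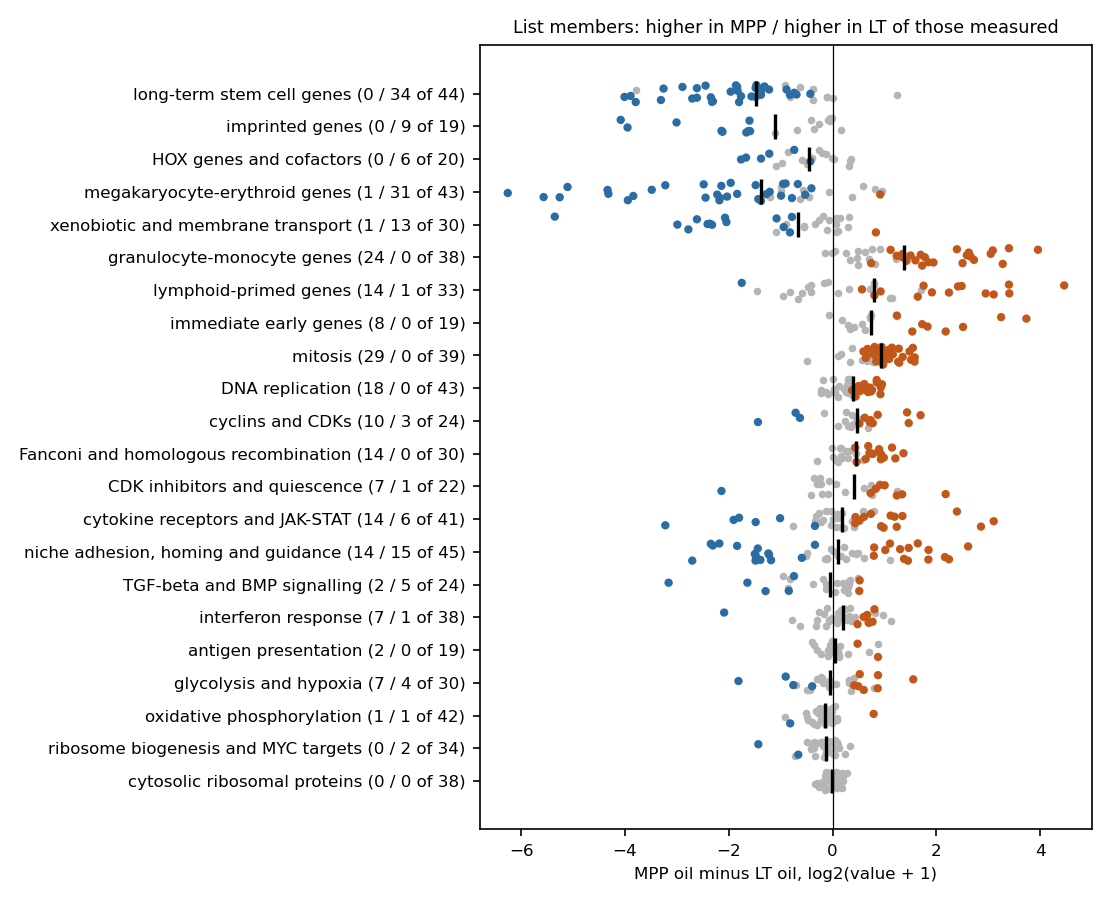
Difference MPP oil minus LT oil on the log2(value + 1) scale for each measured member of 22 gene lists, 1 point per gene, with a black bar at the list's median. Orange points passed as higher in MPP, blue points as higher in LT, and grey points did not pass, and the counts stand beside each name. Stem cell and megakaryocyte-erythroid genes extend to the left, granulocyte-monocyte, lymphoid-primed and mitosis genes to the right, and ribosomal proteins stay near 0.

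Cytokine receptors were found on both sides. Of 23 receptors 13 were higher in MPP and 3 lower, Kit and Epor being among the latter. Over the whole list of 41, 14 were higher in MPP and 6 lower, and the higher count was 9 without LT library B or after rescaling without mitochondrial genes. Il1r1, the interleukin 1 receptor, stood at 187, 184 and 193 in the MPP libraries and 24.3, 17.1 and 37.7 in the LT libraries (2.86, adjusted p = 2.5e-05), and its groups did not overlap. Il6ra had 54.4 ± 9.62 against 22.4 ± 2.54, Ifnar2, of the type I interferon receptor, 194 ± 6.13 against 97.6 ± 9.30, and Il10rb 41.6 ± 2.08 against 21.6 ± 5.04. Among 11 kinases and STATs 1 was higher, Stat4 (109 ± 8.95 against 80.0 ± 2.33), whose call was lost without MPP 1, MPP 3 or LT B, and 1 lower, Stat5a (55.7 ± 7.77 against 113 ± 5.96, -1.01, adjusted p = 1.5e-06). The feedback genes Socs2 (5.98 ± 0.888 against 23.3 ± 3.10) and Cish (11.8 ± 3.23 against 45.8 ± 3.45), textbook targets of STAT5, were lower in MPP. The JAK kinases did not pass.

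Adhesion and guidance genes were split almost evenly. Of 45 measured, 14 were higher in MPP and 15 lower. Higher in MPP were the lymphocyte integrin chain Itgal (156 ± 4.96 against 25.3 ± 6.65, 2.61, adjusted p = 1.2e-10), the CXCL12 receptor Cxcr4 (68.2 ± 3.81 against 27.1 ± 2.42), Plxnd1 (46.6 ± 5.34 against 16.5 ± 2.92), Epha7 (32.3 ± 1.91 against 6.88 ± 3.14) and Cd44 (416 ± 20.3 against 240.4 ± 27.4). Higher in LT were the junction proteins Jam2 (2.26 ± 1.151 against 15.1 ± 2.36) and Jam3 (3.54 ± 1.04 against 11.5 ± 1.12), the integrin chain Itga5 (36.1 ± 3.03 against 83.2 ± 4.61), Tie1 (23.2 ± 6.21 against 84.0 ± 7.51) and Plxnc1 (157 ± 6.55 against 446 ± 26.3). The integrin chains of the fibronectin and VCAM1 receptor, Itga4 (548 ± 69.5 against 599.5 ± 10.0) and Itgb1 (184 ± 8.36 against 184 ± 8.12), did not pass. Of 9 receptors for niche ligands 6 were lower in MPP and 1, Notch1, higher.

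In TGF-beta and BMP signalling, of 24 genes measured 2 were higher in MPP and 5 lower, beside 7.76% and 7.01% of all genes. Tgfbr3, the co-receptor betaglycan, stood at 12.0, 20.2 and 10.7 in the MPP libraries and 139.5, 156 and 103 in the LT libraries (-3.16, adjusted p = 4.2e-12), and Eng, endoglin, at 110.4, 98.4 and 102 in the MPP libraries and 177, 172 and 172 in the LT libraries (-0.74, adjusted p = 0.0011). Both were lower in every MPP library. None of the 7 SMAD genes passed. Tgfbr2 was higher in MPP (83.9 ± 6.90 against 58.7 ± 10.7), a call lost without MPP 1, MPP 2 or LT A, and without each of these 3 libraries in turn the count of higher members was 0. It was also 0 after rescaling without mitochondrial genes, and 5 with only the 6 oil libraries. Over all genes 869 and 1818 were higher in those fits.

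Of the HOX genes, members of the Hoxb cluster passed. None of 8 Hoxa genes passed, Hoxa9 having 45.4 ± 2.62 against 36.7 ± 6.99, while 4 of 5 Hoxb genes were lower in MPP. Hoxb5, used as a marker of long-term stem cells, stood at 2.84, 1.00 and 1.19 in the MPP libraries and 8.65, 8.75 and 5.99 in the LT libraries (-1.76, adjusted p = 0.0016) with groups apart. The calls of Hoxb3, Hoxb4 and Hoxb7 were each lost without LT library A, and over the list of 20 the count of lower genes fell from 6 to 3 without it. The difference between the clusters was not tested.

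Transporters and detoxifying enzymes were mostly higher in LT where they passed. Of 30 measured, 1 was higher in MPP and 13 lower. Aldh1a1, retinaldehyde dehydrogenase, stood at 1.22, 0.430 and 0.396 in the MPP libraries and 63.5, 68.8 and 65.9 in the LT libraries (-5.35, adjusted p = 5.0e-13), with 6 reads over the 3 MPP libraries. Its close relative Aldh1a7 had 0.504 ± 0.320 against 9.68 ± 4.37, and reads of the pair may be shared. Abcg2, the pump behind the dye efflux of stem cells, stood at 38.8, 37.7 and 35.0 in the MPP libraries and 58.9, 66.6 and 74.2 in the LT libraries (-0.82, adjusted p = 3.8e-04). Abcb4 had 4.50 ± 0.577 against 43.1 ± 9.00 and Slc18a2, a monoamine transporter, 50.4 ± 22.6 against 199 ± 18.3, while Abcb1b, a multidrug pump, was higher in MPP (59.7 ± 5.69 against 33.1 ± 4.34).

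Metabolic genes that passed showed no common direction. Of 30 glycolysis and hypoxia genes 7 were higher in MPP and 4 lower, and the higher count was 4 without LT library B. Of 7 genes of the lower pathway 4 were higher in MPP and 1 lower, and 2 were higher after rescaling without mitochondrial genes. Among the higher were Pgam1 (161 ± 10.6 against 87.8 ± 8.16) and Pgk1 (135 ± 10.2 against 89.2 ± 11.7). The oxygen sensor Egln3 (34.9 ± 2.13 against 11.3 ± 1.82) was also higher in MPP. Hk1 (78.9 ± 12.4 against 133 ± 3.88) was higher in LT and the only call among 5 genes of glucose entry. Pfkm (19.9 ± 0.4998 against 38.2 ± 4.18) was higher in LT and the only call among 6 genes of the upper pathway. Of 42 nuclear genes of oxidative phosphorylation 1 was higher in MPP and 1 lower. The median difference of these 42 was -0.14, and 5 of them lay above 0, where 6964 of all 14419 genes did. None of the 13 mitochondrially encoded genes passed, and 12 of them lay above 0. Their median difference was 0.20, beside the higher share of mitochondrial ribosomal RNA in MPP, and 5 passed as higher with only the 6 oil libraries. The same fit gave 8 lower of 30 glycolysis and hypoxia genes and 5 lower of 42 nuclear genes of oxidative phosphorylation. It also gave 7 lower of 34 genes of ribosome biogenesis and the MYC network. In that fit 1627 of all 14419 genes were lower, against 1011 with all 18 libraries. None of 38 cytosolic ribosomal protein genes passed, and their median was -0.012. Of 34 genes of ribosome biogenesis and the MYC network, 0 were higher in MPP and 2 lower: Mycn, the MYC paralog, stood at 38.5, 34.8 and 15.4 in the MPP libraries and 78.1, 72.8 and 77.0 in the LT libraries (-1.43, adjusted p = 0.0019), and Srm had 43.6 ± 12.3 against 67.8 ± 7.76, a call lost without MPP 2, LT A or LT B. Myc had 328 ± 45.0 against 259 ± 33.2 and did not pass.

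Immediate early genes, which respond within minutes to stimuli including cell handling, were higher in MPP where they passed. Of 19 measured, 8 were higher in MPP and 0 lower, with a median of 0.74, and the count was 4 to 6 without any 1 oil library. Fos stood at 42.8, 48.5 and 17.0 in the MPP libraries and 0.729, 5.79 and 0.418 in the LT libraries (3.73, adjusted p = 0.0088) and Jun at 101, 106 and 63.5 in the MPP libraries and 6.36, 26.5 and 17.7 in the LT libraries (2.51, adjusted p = 0.015), the latter call being lost without MPP 1, MPP 2 or LT A. The groups did not overlap for either gene, but values within a group differed several-fold. Junb (11.5 ± 0.911 against 10.1 ± 2.05) and Ier2 (17.2 ± 6.29 against 10.4 ± 1.08) did not pass. The sources used here do not give the time from killing to lysis, and its part was not tested.

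Of 38 interferon genes measured, 7 were higher in MPP and 1 lower, beside 7.76% and 7.01% of all genes. The higher count was 1 after rescaling without mitochondrial genes and 11 with only the 6 oil libraries. Over all genes 869 and 1818 were higher in those fits. The interferon count fell to between 1 and 4 without any 1 oil library. Ifi27l1 (64.2 ± 3.69 against 37.4 ± 5.29) kept its call in all alternatives, and Gbp9 was lower in MPP (5.30 ± 1.02 against 25.6 ± 1.69, -2.09, adjusted p = 3.2e-05), though the Gbp genes are close copies. In the antigen presentation list none of the 7 class II members passed, though H2-Ob, outside the list, did, and of the 12 class I genes Tap1 (119.7 ± 7.05 against 85.4 ± 2.24) and Tap2 (49.9 ± 10.4 against 26.4 ± 1.42) did. Tap1 lost its call in 8 alternatives, including without MPP 2, MPP 3, LT A, LT B or LT C. The autophagy and lysosome list gave 1 higher gene of 30, Npc1 (125 ± 18.97 against 70.1 ± 4.70), and 1 lower, Ctsl (19.7 ± 4.61 against 35.6 ± 5.70), the latter not without MPP 2.

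Estrogen receptor genes were read because the series concerns tamoxifen. Esr1, estrogen receptor alpha, stood at 80.9, 87.5 and 66.9 in the MPP libraries and 39.1, 38.4 and 43.9 in the LT libraries and was higher in MPP (0.93, adjusted p = 0.028). This call was lost without MPP 1, MPP 2, LT A, LT B or LT C, after rescaling without mitochondrial genes, and without moderation. Gpr30 (Gper1) had 1.43 ± 0.636 against 0.763 ± 0.557 and did not pass. Esr2 was not analysed here.

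Short-term stem cells in oil were set beside both, since their means did not enter the contrast and their libraries entered only the shared spread. For 637 of the genes higher in MPP (56.9%) and 701 of those higher in LT (69.3%) the ST mean lay between the LT and MPP means, against 25.1% of all genes, whose LT and MPP means are mostly closer together. The ST mean was nearer the MPP mean for 41.6% of the genes higher in MPP and for 60.8% of those higher in LT. ST mice had received oil for 2 weeks, as the LT mice had. On the second principal component of all 18 libraries, an axis holding 20.25% of their variance, the ST libraries stood apart as a set. They scored 26.36 to 50.77, and all MPP and LT libraries -30.02 to -3.482. The sample titles also number the ST libraries in a series of their own. What sets them apart was not tested, so ST levels are not read as steps between the populations.

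The order differed from gene to gene. Slamf1 was 19.1 ± 9.57 in ST, beside 25.5 ± 6.35 in LT, a difference within 1 SD of ST. Car1 was 125 ± 26.8 in ST, nearer to MPP in normalised CPM but nearer to LT on the log2(value + 1) scale. Klf1 was 5.02 ± 0.987 in ST, nearer to MPP than to LT on both scales. Dntt (36.9 ± 10.2), Flt3 (142 ± 52.3) and Satb1 (91.1 ± 29.3) in ST were nearer to LT than to MPP. Mpo was 1099 ± 133 and Elane 173 ± 44.0 in ST, above the MPP means of 811 ± 198 and 45.2 ± 16.3, and Mecom was 93.0 ± 16.1 in ST, under both other means. Top2a was 469 ± 61.5 and Mcm6 186 ± 17.3 in ST. Differences of ST from either population were not tested here.

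**Figure D4:**
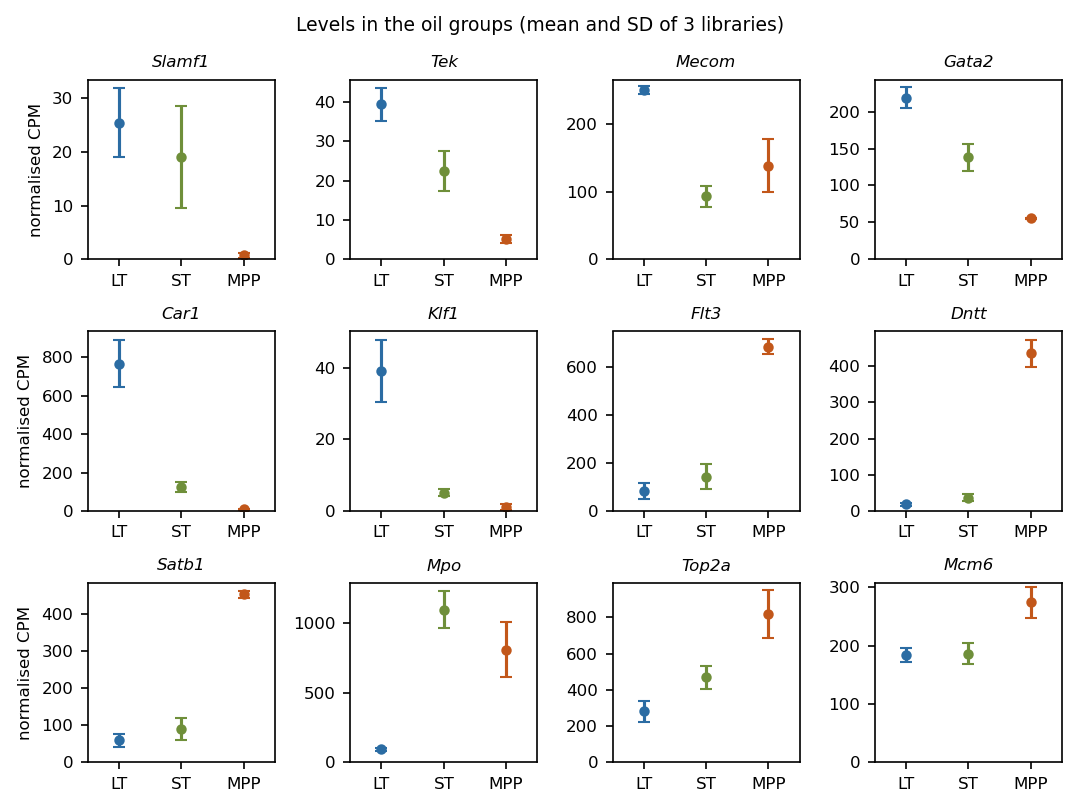
Normalised CPM of 12 genes in the LT, ST and MPP oil groups, each on its own linear axis from 0, as mean (point) and SD (bar) of 3 libraries. Flt3, Dntt and Satb1 are highest in MPP, Car1 and Klf1 in LT, and Mpo in ST.

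LT tamoxifen library A stood apart from its replicates, with 25.5% of reads in mitochondrial ribosomal RNA and 3.99% in mitochondrial messages, against at most 18.7% and 1.71% in LT tamoxifen B and C, so values in tamoxifen are given with and without it. The same 2 populations were compared in tamoxifen, in libraries that entered the oil test only through the shared spread. Among all genes 17.7% passed between MPP and LT in tamoxifen. Of the 1119 genes higher in MPP in oil, 1095 had the same sign and 776 (69.3%) also passed as higher, where 9.36% of all genes did. Of the 1011 genes higher in LT, 983 had the same sign and 673 (66.6%) also passed as lower, against 8.34%. Without LT tamoxifen A, 785 and 643 also passed, where 1218 of all genes passed as higher and 1048 as lower, against 1349 and 1203 with it. In each set 1 gene passed in tamoxifen with the opposite sign. Read from the other side, 57.5% and 55.9% of the genes passing in tamoxifen had passed in oil. Population and duration are tied in tamoxifen as in oil.

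The genes with large differences in oil gave the following in tamoxifen. Flt3 differed by 4.04, Dntt by 6.65, Mpo by 5.54, Slamf1 by -4.67, Car1 by -4.17 and Gata2 by -1.56 on the same log2 scale. Without LT tamoxifen A these were 3.87, 6.44, 5.49, -4.66, -4.14 and -1.89. Mitosis genes gave 23 higher of 39 in tamoxifen and DNA replication genes 6 higher and 1 lower of 43, beside 29 and 18 in oil. Immediate early genes gave 15 of 19, beside 8 in oil, but 9 without LT tamoxifen A. Without that library the higher counts of mitosis and DNA replication genes were 25 and 9. Over all genes the higher count was 1218 without it and 1349 with it. The difference between the tamoxifen and the oil contrast was tested for each gene. None passed in limma (808 genes at an unadjusted p under 0.05, smallest adjusted p = 0.138) or in edgeR, and 11 passed in DESeq2. The changes in these counts are thus not shown to be differences between treatments. The smallest p-values belonged to Ly6c2, a surface antigen with close copies, whose difference was 2.50 in oil and 4.36 in tamoxifen, and to Gm9892, with -1.66 and 1.70.

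**Figure D5:**
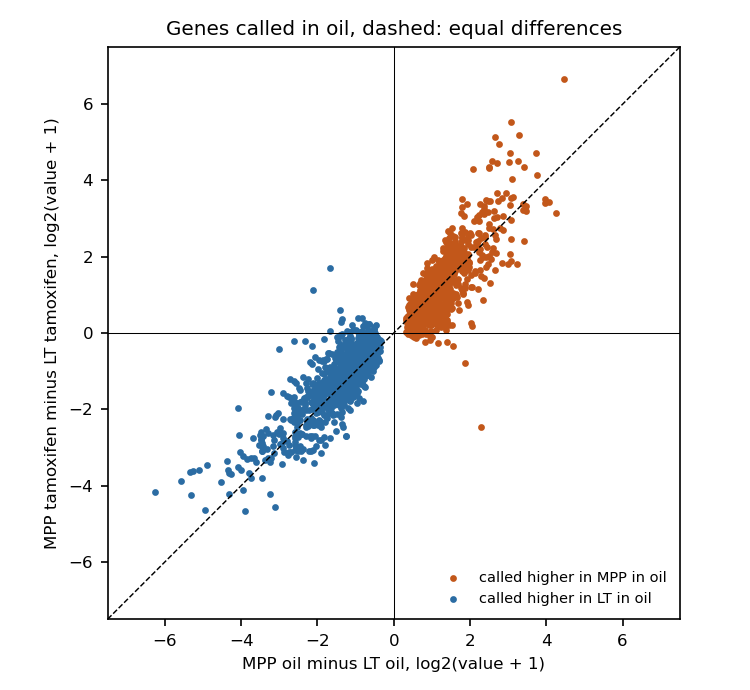
MPP minus LT on the log2(value + 1) scale in oil (horizontal) and in tamoxifen (vertical) for the 2130 genes called in oil, orange for those higher in MPP and blue for those higher in LT. The dashed line marks equal differences, and 1095 orange and 983 blue points keep their sign.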

How the data were processed

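The authors deposited 1 table of normalised signal values for 14419 genes in 18 libraries. The submitters' processing notes name cutadapt, Picard, RSEM 1.17 and limma and the build NCBIM37. For the scaling, annotation and strand setting the labels have no entry. Each value is (reads + 0.5) times a constant per library: with a tolerance of 0.001 read, 100% came out whole, so reads were recovered for edgeR and DESeq2. Depth was 2728800 to 5279821 reads, without molecular identifiers.

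All 18 libraries entered 1 limma 3.58.1 fit (R 4.3.3, statmod 1.5.0) on log2(value + 1) with 6 group means and 12 residual degrees of freedom, trend and robust moderation, and Benjamini-Hochberg adjustment over all genes at 0.05. A value of 1 in 3 libraries was required and removed no gene. If the libraries were technical replicates, p-values would measure technical spread only. The script was tested on simulated data.

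Members, gene lists and tests were chosen with earlier results of these data known, so list counts are descriptions. Named were the 15 genes per direction with the largest difference (above the median level, groups apart, no provisional symbol), all surface markers, 4 per list with the smallest p or 1 where none passed, Esr1, Esr2 and Gper1, and 2 from the treatment difference. Other list members named, among them those that did not pass, were chosen after their values were seen. A few genes under the rule are not reported here. Promoters are RefSeq entries on GRCm38.p6. Alternatives were other pseudocounts (0.5, 3) and filters, quantile and non-mitochondrial scaling, no moderation, library weights (statmod), edgeR 4.0.16, DESeq2 1.42.0, subsets of libraries and each library left out.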

Additional observations from a re-analysis of the deposited data

How the results depend on the processing

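No called gene changed sign in any alternative. The count of 2130 genes was 1467 to 1700 when 1 oil library was left out, lowest without LT B and highest without MPP 1. Without LT tamoxifen A, which enters only the shared spread, it was 2602. With only the 6 oil libraries it was 3445 (1818 higher in MPP, 1627 lower), with library weights 3568 (1827 and 1741), and with a 2-fold minimum 1165 (498 and 667). The cause of the first 2 was not tested. In the fit with only the 6 oil libraries, counts of further lists moved by over 1.5 times. They are given as higher in MPP, then lower, beside 1818 and 1627 of all 14419 genes. Of 19 antigen presentation genes there were 4 and 3, of 30 autophagy genes 4 and 3 and of 38 ribosomal protein genes 2 and 3. Of 33 lymphoid-primed genes there were 17 and 4, and of 43 megakaryocyte-erythroid genes 4 and 33. The 22 genes of CDK inhibitors and quiescence gave 9 and 2. The 30 xenobiotic transport genes gave 2 and 15, and the 15 estrogen receptors and targets 5 and 4. edgeR gave 2114 and DESeq2 2226. For the difference between tamoxifen and oil, 0 genes passed, 2 with library weights, 11 in DESeq2, and 0 to 5 with 1 library left out. MPP libraries are numbered and LT libraries lettered, so no block could enter the oil comparison. A replicate block was possible for the treatment difference and gave 9 genes, but the labels do not say whether equal labels pair oil and tamoxifen libraries. Deviations from the group means correlated by -0.0326 to 0.126 over the 6 same-label pairs and by -0.128 to 0.0567 over pairs with unlike labels. These small values cannot settle whether the libraries are paired. Of the 126 genes named by the rule, none reversed. Low genes rest on few reads, and 3 libraries per group limit the precision.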

Other observations

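The genes here stand in no list, and their values were known when they were picked. They do not stand for a group. Of the 7 listed T and NK cell markers 2 were higher in MPP and 0 lower (1 lower with only the 6 oil libraries), whereas the following T cell genes, picked for being higher in LT, were not in that list. Tcf7, the T lineage factor TCF1, stood at 2.03, 3.29 and 0.660 in the MPP libraries and 26.2, 38.4 and 26.3 in the LT libraries (-3.47, adjusted p = 8.9e-08). Bcl11b, of T cell commitment, had 0.313 ± 0.301 against 8.07 ± 3.48 (MPP against LT, mean ± SD, n = 3), and Trbc1, a T cell receptor constant region, 0.867 ± 0.171 against 10.4 ± 0.988. Zbtb16, which encodes PLZF, had 2.57 ± 1.09 against 25.2 ± 3.86. The 3 LT values of each lay above the 3 MPP values, and in tamoxifen the differences were -2.78, -1.67, -1.25 and -1.57 in the same order.

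The genes of haem and iron handling named next were likewise picked for being higher in LT, and no list of such genes was tested. Cpox, of the haem pathway, stood at 25.8, 25.1 and 22.8 in the MPP libraries and 142, 137 and 127 in the LT libraries (-2.42, adjusted p = 8.6e-08), and Blvrb, a biliverdin reductase, had 3.21 ± 0.922 against 41.5 ± 9.16. Trfr2, transferrin receptor 2, had 31.2 ± 4.27 against 101 ± 4.09, Steap3, an iron reductase, 17.4 ± 3.45 against 56.4 ± 15.7, Slc11a2, an iron importer, 14.4 ± 2.77 against 45.7 ± 4.71, and Slc40a1, ferroportin, 8.20 ± 2.27 against 22.4 ± 5.17. The metallothioneins Mt1 (1.22 ± 0.789 against 18.98 ± 6.82) and Mt2 (0.137 ± 0.00579 against 12.5 ± 2.93) and asparagine synthetase Asns (6.52 ± 0.614 against 47.9 ± 4.65) were also higher in LT. Itgam, the myeloid integrin CD11b, stood at 115, 109.6 and 189 in the MPP libraries and 24.5, 22.2 and 35.8 in the LT libraries and Hnf4a, a nuclear receptor best known in liver, at 95.5, 82.3 and 61.6 in the MPP libraries and 25.7, 14.4 and 29.7 in the LT libraries, and both were higher in MPP (2.27, adjusted p = 1.2e-06, and 1.77, adjusted p = 0.0028). Each gene given here with its values passed in every alternative run.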
